A study of Homo sapiens with 12 samples.

Results

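The interaction of EC359 with trametinib was measured over all 12 libraries of the series, 12 of 12, which form a single 2 × 2 design in OVCAR8, an established cell line from a human ovarian cancer. For 7 h the cells received vehicle (control, 0 nM of either agent), 150 nM EC359, 100 nM trametinib, or 150 nM EC359 together with 100 nM trametinib (the combination), and each of the 4 groups had 3 libraries. All groups were cultured alike, and the labels do not say whether the 3 libraries of a group came from separate cultures, so p-values measure only the spread between these libraries, which may be technical. The series gives 1 dose of each agent at 1 time in 1 cell line.

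Trametinib blocks MEK, the kinase that activates ERK. ERK in turn switches on immediate early genes and a set of phosphatases and adaptor proteins that shut the pathway down again. EC359 is a small molecule inhibitor of the receptor for leukemia inhibitory factor, a cytokine of the interleukin-6 family that signals through JAK kinases as well as through ERK. When the effects of 2 agents are independent on the log scale, the combination changes a gene by the sum of the log2 changes caused by each agent alone. The interaction is the difference between the observed change and that sum, and it equals the effect of EC359 in the presence of trametinib minus the effect of EC359 in its absence.

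Polyadenylated RNA was read on 26485 annotated genes at 24790392 to 32467283 counted reads per library. After a filter on low counts 14865 genes were tested. Expression is given as CPM, the reads of a gene per 1000000 reads after TMM normalization, and a value after ± is the SD over the 3 libraries of a group (n = 3). A count of 0 allows up to 3 counts, or 0.0924 to 0.121 CPM in these libraries, which covers counting error only. Interactions are on the log2 scale and were tested across all genes by the quasi-likelihood method of edgeR, with p-values adjusted after Benjamini and Hochberg (written as edgeR adjusted p) and a threshold of 0.05. Over the genes of a library pair (genes are no replicates), Pearson's r of log2 expression was 0.9912 to 0.9926 within groups and 0.9584 to 0.9873 between groups. The epithelial keratins KRT7, KRT8 and KRT18 and the Müllerian factor PAX8 were detected in every library, KRT19 and MUC16 were at 0 in 10 of the 12 libraries, and CDH1 stayed at or below 0.534 CPM without TMM scaling. PTPRC, CD3E and DCN, which mark leukocytes, T cells and fibroblasts, were at 0 in all 12, while COL1A1 and the macrophage marker CD68 were detected in every library, up to 558 and 57.6 CPM without TMM scaling.

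The combination departed from the sum of the single agents in 4506 genes, 30.3% of all genes tested, with 2145 (14.4%) above the sum and 2361 (15.9%) below it. Against control, EC359 passed the test in 61.1% of genes, trametinib in 28.2% and the combination in 69.6%. The combination passed against EC359 in 49.2% of genes (24.1% higher and 25.2% lower) and against trametinib in 68.2%. In bulk RNA, fewer cells that express a gene and less RNA per cell cannot be told apart. Most departures were small. In 3806 of the 4506 genes, 84.5%, the interaction was under 1.5-fold, and its median was 0.26 among genes above the sum and -0.30 among genes below it, against -0.01 over all genes. An interaction of at least 2-fold was called in 233 genes (1.57% of all genes tested), 131 above the sum and 102 below. Such calls were more frequent in weakly expressed genes, by mean CPM of the 12 libraries. They made up 3.35% above and 1.62% below the sum in genes under 1 CPM. The shares were 1.94% and 2.57% at 1 to 4 CPM, and 0.135% and 0.0541% over 64 CPM. The sign of the interaction was the same for every one of the 81 ways of taking 1 library from each group in 3562 of the called genes, 79.1%, beside 26.4% of all genes tested. The departure from the sum could be bounded for a part of the transcriptome only. In 4612 genes, 31% of those tested, the 95% interval of the interaction lay within 1.2-fold either way. Of these, 838 also had a called interaction of that small size. A gene that an agent does not move can meet this bound too, so the bound alone does not show that effects were summed. For 6585 genes the interaction was neither called nor bounded within 1.2-fold.

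**Figure D1:**
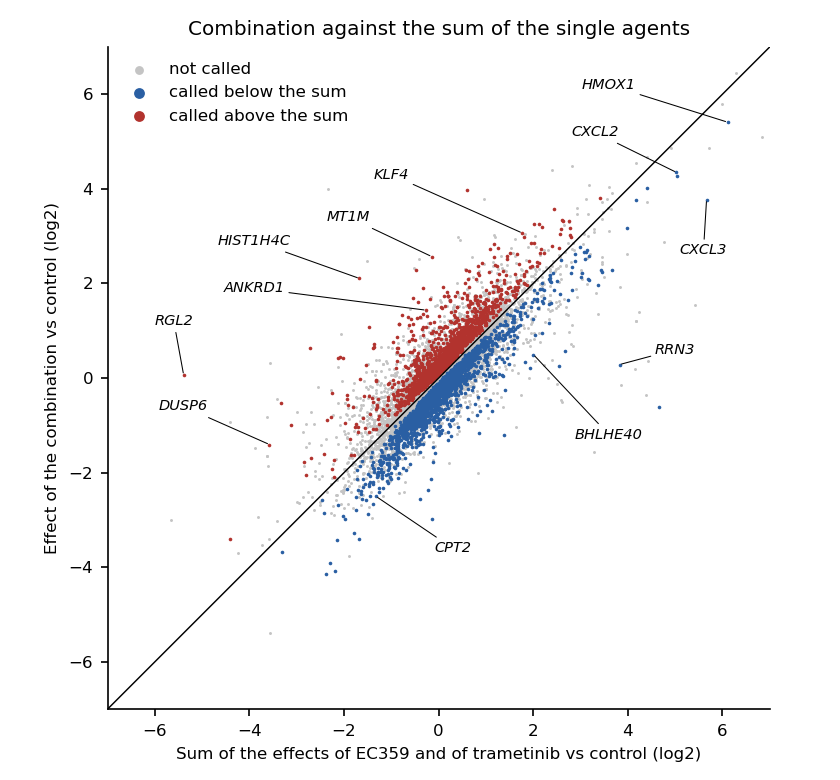
Effect of the combination against control (vertical axis, log2) plotted against the sum of the effects of EC359 and of trametinib (horizontal axis, log2) for the 14865 genes tested, with the line on which both are equal. The 2145 genes called above the sum (red) and the 2361 called below it (blue) lie above and below the line, with RGL2, HIST1H4C and RRN3 among the genes farthest from it.

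Which of the 4 groups stood apart was counted from the libraries themselves. Among genes above the sum, the 3 combination libraries lay above all 9 others in 1307 of 2145 (60.9%), beside 17.6% of all genes tested. The 3 trametinib libraries lay below all others in 456 (21.3%, beside 7.74% of all genes), the EC359 libraries below all others in 348 (16.2%, beside 5.4%), and the control libraries above all others in 177 (8.25%, beside 7.65%). Among genes below the sum, the combination was lowest in 1329 of 2361 (56.3%, beside 15.2%). EC359 was highest in 588 (24.9%, beside 8.58%), trametinib highest in 362 (15.3%, beside 6.16%) and control lowest in 301 (12.7%, beside 9.12%). A gene could show several of these patterns, and 187 genes above the sum and 146 below it showed none. These counts describe the same libraries that gave the interaction and carry no test. With total counts in place of TMM scaling, combination highest was counted in 858 genes and combination lowest in 1705, and the split of called genes was 1735 above the sum against 2842 below.

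**Figure D2:**
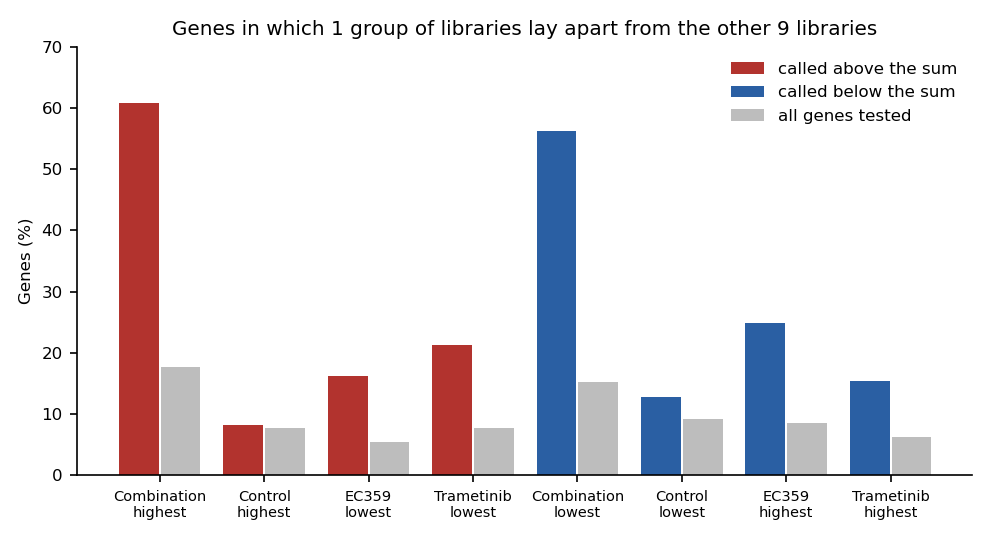
Share of genes (vertical axis, %) in which the 3 libraries of 1 group lay above or below all 9 others, for genes called above the sum (red), called below the sum (blue) and all genes tested (grey). The combination standing apart is the most frequent pattern on both sides, at 60.9% and 56.3% of the called genes.

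Both single agents changed 58 genes by at least 2-fold each. Of these, 19 were above the sum and 9 below it, and in 1 the interval lay within 1.2-fold. At least 1 single agent changed 1193 genes by 2-fold or more, with 184 of them above the sum and 250 below. Over all 14865 genes tested, 2145 (14.4%) were above the sum and 2361 (15.9%) below. In 4734 genes neither single agent passed the test, and 395 of these were above the sum and 320 below it (8.34% and 6.76%, beside 14.4% and 15.9% of all genes). The share called differed with expression, from 3.35% above and 1.62% below the sum in genes under 1 CPM to 27.9% and 22.2% in genes over 64 CPM. The shares of all genes set beside those of lists are not matched for expression.

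Metallothioneins are small cysteine-rich proteins that bind zinc and copper, and their genes are switched on by the zinc sensor MTF1 through metal response elements. Of 11 tested metallothionein and zinc transport genes, 7 were above the sum and 1 below (63.6% and 9.09%, beside 14.4% and 15.9% of all genes), with a median interaction of 0.90, the highest of the 31 lists examined. MT1M, on chromosome 16 from 56632622 to 56633986 in hg38, was at 2.78, 4.09 and 2.91 CPM in control, 3.89, 3.32 and 3.63 CPM with EC359, 2.59, 2.17 and 3.24 CPM with trametinib and 19, 18.6 and 20.6 CPM with the combination. Control libraries overlapped those of both single agents, and all combination libraries lay far above them. Neither EC359 (log2 change 0.14, edgeR adjusted p = 0.392) nor trametinib (-0.29, 0.13) passed the test alone, while the combination was higher by 2.57, and the interaction was 2.71 (standard error 0.19, edgeR adjusted p = 1.62e-16).

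MT1X, on chromosome 16 from 56682470 to 56684196, was at 31, 34.9 and 33.8 CPM in control, 43.3, 47.3 and 46.1 CPM with EC359, 26.7, 25.7 and 26 CPM with trametinib and 105, 111 and 114 CPM with the combination. Here EC359 alone was above control and trametinib alone below it, and the combination libraries were again apart from all others, with an interaction of 1.62 (standard error 0.06, edgeR adjusted p = 5.90e-28). MT1E was at 119 ± 3.28 CPM in control, 132 ± 5.09 CPM with EC359, 94.1 ± 4.11 CPM with trametinib and 265 ± 2.47 CPM with the combination, with an interaction of 1.35 (standard error 0.04, edgeR adjusted p = 5.24e-32). MT1F was at 1.86, 1.33 and 0.912 CPM in control, 1.01, 1.48 and 1.97 CPM with EC359, 1.4, 0.722 and 0.584 CPM with trametinib and 4.63, 4.62 and 3.23 CPM with the combination. Its other 3 groups overlapped below the combination, and the interaction was 2.04 (standard error 0.45, edgeR adjusted p = 0.00198). MT2A departed less, with an interaction of 0.42 (edgeR adjusted p = 5.85e-15). SLC30A1, the zinc exporter at the cell surface, was at 8.36 ± 0.152 CPM in control, 31.1 ± 0.619 CPM with EC359, 8.73 ± 1.05 CPM with trametinib and 60.3 ± 2.36 CPM with the combination and had an interaction of 0.90 (edgeR adjusted p = 2.34e-11). SLC39A10, a zinc importer, went the other way, from 85 ± 1.57 CPM in control and 65.6 ± 3.33 CPM with EC359 to 45.9 ± 3.12 CPM with the combination, an interaction of -0.78 (edgeR adjusted p = 9.53e-17). MTF1 itself had an interaction of -0.16 that did not pass (0.132 by edgeR). SLC30A1, MT2A, SLC39A10 and MTF1 are named for their roles and were picked after their values were seen. Paralogs of this family share reads, which the authors split as fractions, and the values of MT1E and MT1X were not whole in 10 of the 12 libraries, against 3 for MT1M and 2 for MT1F.

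The stretch of 200 bases before the start site of MT1X is shown because of its repeated metal response element core (letters TGCNCNC on either strand, in capitals), of which it holds 4. It lies at chr16:56682270-56682469 on the plus strand of GRCh38.p14 and is taken from RefSeq.
MT1X: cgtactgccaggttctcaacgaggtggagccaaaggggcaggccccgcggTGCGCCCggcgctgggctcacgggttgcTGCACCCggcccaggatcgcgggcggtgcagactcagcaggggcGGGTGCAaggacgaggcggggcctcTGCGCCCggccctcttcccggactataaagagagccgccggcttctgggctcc
The core is short, and at least 1 match was present in the 250 bases before the start site in 49.1% of the 35116 promoter windows searched. Of the leading genes with a window, 4 of 8 above the sum and 7 of 11 below it held one.

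Over the 12 negative feedback genes of the ERK pathway tested, the median effect of EC359 was 1.25 and that of trametinib -1.99. Of these 12 genes, 7 were above the sum and none below it (58.3%, beside 14.4% and 15.9% of all genes), with a median interaction of 0.37. With total counts only, 6 were above and 0 below. DUSP6, a phosphatase that inactivates ERK, on chromosome 12 from 89347825 to 89352859, was at 3.75, 3.99 and 4.5 CPM in control, 14.6, 15.1 and 14.9 CPM with EC359, 0.0312, 0.19 and 0.0649 CPM with trametinib and 1.52, 1.94 and 1.16 CPM with the combination. Each group was apart from the others, in the order EC359, control, combination and trametinib. The trametinib libraries held 1 to 5 counts each, 8 in all against 384 in control, after scaling for library size a ratio of 0.0222 whose counting interval runs from 22.6-fold to 105-fold lower. On the log2 scale EC359 raised DUSP6 by 1.86 without trametinib and by 4.03 with it, an interaction of 2.17 (standard error 0.37, edgeR adjusted p = 5.70e-06), whereas on the linear scale the interaction was -9.35 CPM, below 0.

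The same change of sign between scales held in the other feedback genes named here. SPRED3, an inhibitor of RAS signaling, was at 8.91 ± 1.06 CPM in control, 15.3 ± 0.70 CPM with EC359, 1.3 ± 0.283 CPM with trametinib and 4.62 ± 0.426 CPM with the combination, an interaction of 1.02 (edgeR adjusted p = 7.37e-06) on the log2 scale and -3.1 CPM on the linear scale. DUSP5, a nuclear ERK phosphatase, was at 57.9 ± 1.53 CPM in control, 186 ± 2.53 CPM with EC359, 10.7 ± 0.194 CPM with trametinib and 54.5 ± 1.34 CPM with the combination. Its combination libraries lay just below control, by a log2 difference of -0.09, and its interaction was 0.66 (edgeR adjusted p = 6.08e-13) on the log2 scale and -84.3 CPM on the linear one. SPRY2, a Sprouty protein that dampens receptor signaling, had values of 0.51 and -18.7 CPM by the same measures. In all 4 genes the fold increase with EC359 was larger, and the increase in CPM smaller, when trametinib was present.

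Other ERK-driven genes did not move together. Of 26 tested, 8 were above the sum and 9 below (30.8% and 34.6%, beside 14.4% and 15.9% of all genes), with a median interaction of -0.01. ETV1, an ETS transcription factor of the PEA3 group, was at 15.4, 14.1 and 13.2 CPM in control, 12.1, 14.2 and 13.1 CPM with EC359, 0.811, 0.494 and 0.811 CPM with trametinib and 1.2, 1.23 and 1.58 CPM with the combination. Trametinib libraries lay far below control (log2 change -4.31), EC359 alone did not pass the test (-0.11, edgeR adjusted p = 0.358), and the combination was above trametinib alone, an interaction of 1.01 (edgeR adjusted p = 1.80e-04). GPR3, a receptor that raises cyclic AMP, had an interaction of 0.81 (edgeR adjusted p = 1.63e-06) that turned negative on the linear scale (-4.57 CPM). SPHK1, which makes the lipid messenger sphingosine-1-phosphate, was at 121 ± 2.37 CPM in control, 169.8 ± 1.25 CPM with EC359, 77 ± 2.35 CPM with trametinib and 170.2 ± 5.16 CPM with the combination, and its interaction was 0.66 (edgeR adjusted p = 9.07e-19). EPHA4, an ephrin receptor, was lowered by each agent alone and was at 2.11 ± 0.266 CPM with the combination against 2.16 ± 0.389 CPM in control, an interaction of 1.63 (edgeR adjusted p = 6.49e-05) at a low level.

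Immediate early genes split into both directions, 8 above the sum and 9 below of 29 tested (27.6% and 31%, beside 14.4% and 15.9% of all genes), with a median interaction of -0.07. MAFF, a small MAF factor of the AP-1 family, was at 65.1, 68.5 and 66.7 CPM in control, 456, 465 and 463 CPM with EC359, 16.9, 16.8 and 18.1 CPM with trametinib and 303, 312 and 313 CPM with the combination. No groups overlapped, and EC359 raised MAFF by 2.79 without trametinib and by 4.16 with it, an interaction of 1.37 (standard error 0.05, edgeR adjusted p = 7.02e-31) on the log2 scale. On the linear scale it was -102 CPM. FOS, the AP-1 subunit induced by ERK, was at 1.39, 2.63 and 1.74 CPM in control, 58.1, 57.8 and 55.9 CPM with EC359, 0.343, 0.114 and 0.357 CPM with trametinib and 19.2, 18.6 and 18 CPM with the combination. Its lowest trametinib library held 3 counts, and the interaction was 1.14 (edgeR adjusted p = 0.00665) on the log2 scale and -37 CPM on the linear one.

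NR4A3, an orphan nuclear receptor, was highest with the combination at 7.87 ± 0.587 CPM, against 3.99 ± 0.238 CPM with EC359, and had an interaction of 1.14 (edgeR adjusted p = 0.00122) with the same sign on both scales. EGR2, a zinc finger factor of the early growth response family, went below the sum. It was at 3.76 ± 0.458 CPM in control, 7.69 ± 0.315 CPM with EC359, 2.08 ± 0.753 CPM with trametinib and 2.05 ± 0.277 CPM with the combination, so that EC359 raised it without trametinib (1.04, edgeR adjusted p = 1.63e-07) and not detectably with it (-0.01, 0.963), an interaction of -1.05 (edgeR adjusted p = 6.78e-04).

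KLF4, a Krüppel-like factor that represses proliferation in many epithelia, was at 8.57, 7.07 and 8.65 CPM in control, 38.6, 38.4 and 38.1 CPM with EC359, 5.65, 5.7 and 6.1 CPM with trametinib and 67, 68.3 and 68.3 CPM with the combination. Its order was combination, EC359, control and trametinib with no overlap, and the interaction was 1.3 (standard error 0.09, edgeR adjusted p = 1.11e-16), above 0 on the linear scale as well (31.8 CPM). Of 15 KLF genes tested, 3 were above the sum and 6 below (20% and 40%, beside 14.4% and 15.9% of all genes), with a median of -0.22. Below the sum, KLF13, KLF11 and KLF3 had interactions of -0.47, -0.41 and -0.34.

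**Figure D3:**
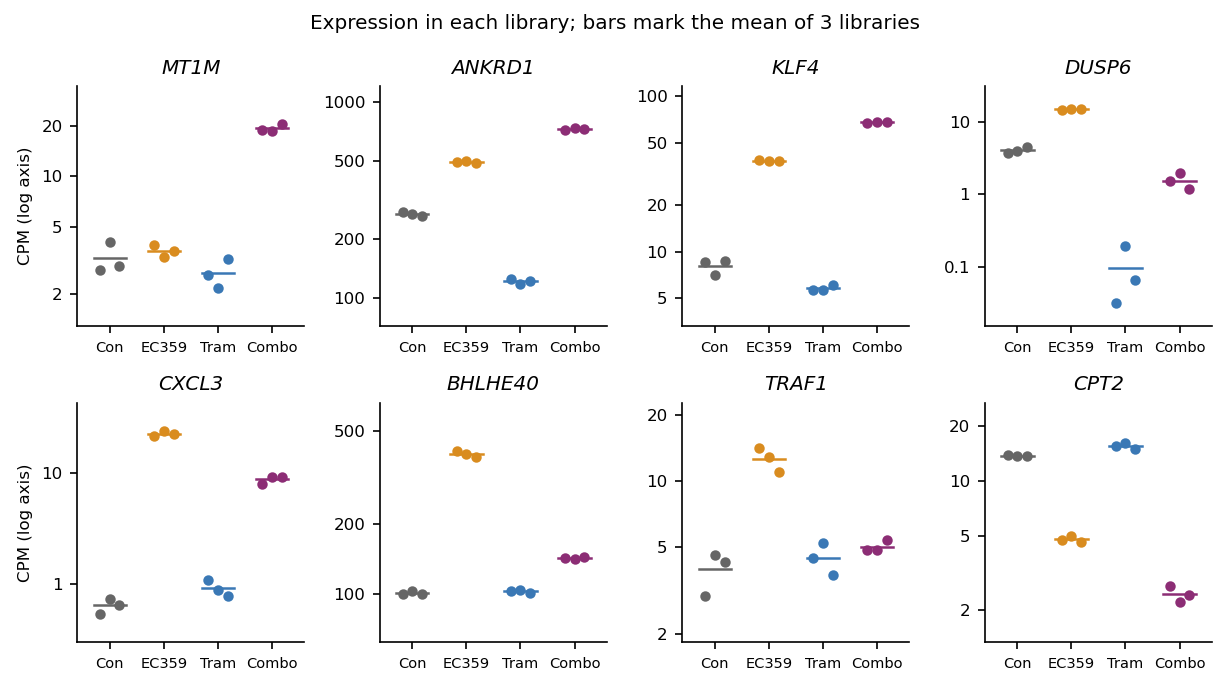
Expression (CPM, log axis) in each of the 12 libraries for 4 genes above the sum (upper row) and 4 below it (lower row), with points for libraries and bars for the mean of 3. MT1M stands apart only in the combination, DUSP6 falls in trametinib to 0.19 CPM or less, and TRAF1 and BHLHE40 are high with EC359 alone.

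Genes of the cytoskeleton and of YAP and SRF, transcriptional regulators that respond to actin, were mostly above the sum by small amounts. Of 28 tested, 15 were above and 4 below (53.6% and 14.3%, beside 14.4% and 15.9% of all genes), with a median of 0.09. With total counts only, 11 were above and 5 below. ANKRD1, a muscle ankyrin repeat protein and a standard YAP target, on chromosome 10 from 90912100 to 90921275, was at 276, 269 and 263 CPM in control, 495, 498 and 491 CPM with EC359, 125, 118 and 122 CPM with trametinib and 723, 736 and 727 CPM with the combination. All 4 groups were apart, and the combination was the highest although trametinib alone lowered the gene. EC359 raised it by 0.88 without trametinib and by 2.58 with it, an interaction of 1.7 (standard error 0.03, edgeR adjusted p = 4.20e-42). CTGF, a second YAP target, did not follow on both scales: its log2 interaction was 0.98 (edgeR adjusted p = 3.23e-23), but its combination libraries (138 ± 1.81 CPM) lay below those with EC359 alone (250.4 ± 6.58 CPM), and the linear interaction was -54.1 CPM. TAGLN and CALD1, which bind actin in contractile cells, were highest with the combination, at 194 ± 3.26 and 264 ± 3.09 CPM against 125 ± 4.71 and 179 ± 2.26 CPM in control, with interactions of 0.50 and 0.45.

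THBS1, which encodes the secreted glycoprotein thrombospondin-1, on chromosome 15 from 39581079 to 39598921, was at 230.3, 227 and 239.7 CPM in control, 152, 146 and 146 CPM with EC359, 75, 78.1 and 73.6 CPM with trametinib and 134, 127 and 129.6 CPM with the combination. Each single agent lowered it (log2 changes -0.65 and -1.62), and the combination lay between them instead of below both. EC359 thus lowered THBS1 without trametinib and raised it with trametinib (by 0.79), an interaction of 1.44 (standard error 0.04, edgeR adjusted p = 8.99e-34). HBEGF, a ligand of the EGF receptor, was at 30.6 ± 1.81 CPM in control, 118 ± 1.88 CPM with EC359, 18.7 ± 0.44 CPM with trametinib and 158 ± 1.37 CPM with the combination and had an interaction of 1.12 (standard error 0.06, edgeR adjusted p = 6.18e-23). Of 28 tested receptor tyrosine kinases and EGF receptor ligands, 6 were above the sum and 6 below (21.4% each, beside 14.4% and 15.9% of all genes), which became 5 and 9 with total counts only. DDR2, a collagen receptor, also departed by 0.97 (edgeR adjusted p = 0.029), but at no more than 4.06 CPM in any library and without a call in DESeq2. The call was also lost without control library 2, EC359 library 1, trametinib library 1 or 2, or combination library 3 (interactions 0.82 to 0.94, edgeR adjusted p 0.0557 to 0.106).

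Chemokines attract neutrophils and other leukocytes and are classic targets of the transcription factor NF-kappaB. Several of them were raised less by EC359, in log2 terms, when trametinib was present. Of 16 tested chemokines and cytokines, 6 were below the sum and 1 above (37.5% and 6.25%, beside 15.9% and 14.4% of all genes), with a median interaction of -0.15. CXCL3, on chromosome 4 from 74036591 to 74038773, was at 0.536, 0.729 and 0.647 CPM in control, 21.8, 24.1 and 22.8 CPM with EC359, 1.09, 0.874 and 0.779 CPM with trametinib and 7.98, 9.2 and 9.24 CPM with the combination. Control and trametinib libraries were all at or below 1.09 CPM, EC359 alone was the highest, and the combination lay between. EC359 raised CXCL3 by 5.15 without trametinib and by 3.26 with it, an interaction of -1.89 (standard error 0.22, edgeR adjusted p = 3.57e-10). CXCL1, on chromosome 4 from 73869392 to 73871302, was at 6.18, 5.86 and 6.71 CPM in control, 131, 127 and 127 CPM with EC359, 3.46, 2.2 and 2.6 CPM with trametinib and 24.8, 26.9 and 27.3 CPM with the combination, and its interaction was -1.12 (standard error 0.13, edgeR adjusted p = 4.03e-10). CXCL2 was at 6.07 ± 0.228 CPM in control, 293 ± 3.03 CPM with EC359, 4.12 ± 0.506 CPM with trametinib and 124 ± 4.95 CPM with the combination, an interaction of -0.68 (edgeR adjusted p = 3.20e-07). CCL20 departed by -0.84 (edgeR adjusted p = 0.0171), a call that was lost without EC359 library 2, trametinib library 1 or combination library 3 (edgeR adjusted p 0.0547 to 0.0919). The neighbouring CXCL8 had an interaction of -0.06 that did not pass (0.831 by edgeR), with a 95% interval of -0.38 to 0.26. CXCL8 is named for comparison and was picked after its values were seen.

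The last 140 bases before the RefSeq start sites of these 3 chemokine genes (GRCh38.p14) are shown because each holds 2 matches to the NF-kappaB letters GGNNTTTCC on either strand, in capitals. CXCL1 lies at chr4:73869253-73869392 on the plus strand, CXCL2 at chr4:74099196-74099335 and CXCL3 at chr4:74038690-74038829 on the minus strand. The gene model behind the counts starts CXCL2 and CXCL3 further upstream, inside these stretches.
CXCL1: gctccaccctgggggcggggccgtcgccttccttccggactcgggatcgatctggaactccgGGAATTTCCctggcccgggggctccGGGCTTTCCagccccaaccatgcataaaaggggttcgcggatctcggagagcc
CXCL2: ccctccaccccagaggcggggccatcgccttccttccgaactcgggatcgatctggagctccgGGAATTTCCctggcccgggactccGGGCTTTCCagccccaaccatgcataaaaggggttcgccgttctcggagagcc
CXCL3: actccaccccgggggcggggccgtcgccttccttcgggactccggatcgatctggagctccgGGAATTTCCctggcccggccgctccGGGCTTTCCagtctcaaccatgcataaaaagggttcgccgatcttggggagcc
At least 1 match to these letters was present in 5.49% of all promoter windows. Among leading genes it was found in 2 of 11 below the sum, which are CXCL3 and CXCL1, and in 2 of 8 above it.

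NF-kappaB subunits and the genes that feed back on it held the highest share of calls below the sum among the inflammatory lists. Of 24 tested, 15 were below and 2 above (62.5% and 8.33%, beside 15.9% and 14.4% of all genes), with a median interaction of -0.19. TRAF1, an adaptor of tumour necrosis factor receptors, was at 2.96, 4.6 and 4.27 CPM in control, 14, 12.8 and 11 CPM with EC359, 4.43, 5.2 and 3.7 CPM with trametinib and 4.83, 4.84 and 5.34 CPM with the combination. Only the EC359 libraries stood apart, and EC359 raised TRAF1 by 1.67 without trametinib and by 0.18 with it (edgeR adjusted p = 0.26), an interaction of -1.49 (standard error 0.19, edgeR adjusted p = 2.94e-08). BIRC3, an inhibitor of apoptosis, was at 14.2 ± 1.14 CPM in control, 39.6 ± 0.624 CPM with EC359, 8.23 ± 0.798 CPM with trametinib and 11.9 ± 1.04 CPM with the combination, an interaction of -0.95 (edgeR adjusted p = 1.21e-10). BCL3, an NF-kappaB cofactor, and ICAM1, an adhesion molecule for leukocytes, had interactions of -1.02 and -0.66, with combination means of 17.1 ± 1.31 and 117 ± 1.48 CPM against 27.6 ± 0.522 and 258 ± 5.81 CPM with EC359 alone.

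Interferon-stimulated genes restrict viruses. Over the list, the median effect of EC359 was 0.02, that of trametinib 0.18 and that of the combination 0.03, and the median of the summed single effects was 0.22. Of 41 tested, 17 were below the sum and 3 above (41.5% and 7.32%, beside 15.9% and 14.4% of all genes), and the median interaction of -0.27 was the lowest of the 31 lists. TRIM21, an antibody receptor in the cytosol, was at 6.18, 4.88 and 5.53 CPM in control, 4.82, 5.04 and 5.52 CPM with EC359, 5.87, 7.37 and 5.71 CPM with trametinib and 2.75, 2.61 and 2.37 CPM with the combination. Control libraries overlapped those of both single agents and all combination libraries lay below them, an interaction of -1.18 (edgeR adjusted p = 1.65e-06). SAMD9, an antiviral factor, and IFIT3, a member of the IFIT family, were lowest with the combination as well, at 20.4 ± 0.49 and 18.4 ± 1.9 CPM against 28.8 ± 2.04 and 25.1 ± 1.99 CPM in control, with interactions of -0.90 and -0.82. IFIT5 differed in that EC359 alone lowered it (-1.38), and its interaction was -0.81. SLFN11, which blocks stressed replication forks and sensitizes cells to DNA damage, on chromosome 17 from 35350310 to 35373701, was at 18, 18.4 and 17.2 CPM in control, 17.6, 20.4 and 19.2 CPM with EC359, 19.9, 20.2 and 18.2 CPM with trametinib and 9.42, 9.17 and 8.83 CPM with the combination. Neither agent alone passed the test, and the combination was lower (log2 change -0.97), an interaction of -1.18 (standard error 0.10, edgeR adjusted p = 2.32e-14).

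**Figure D4:**
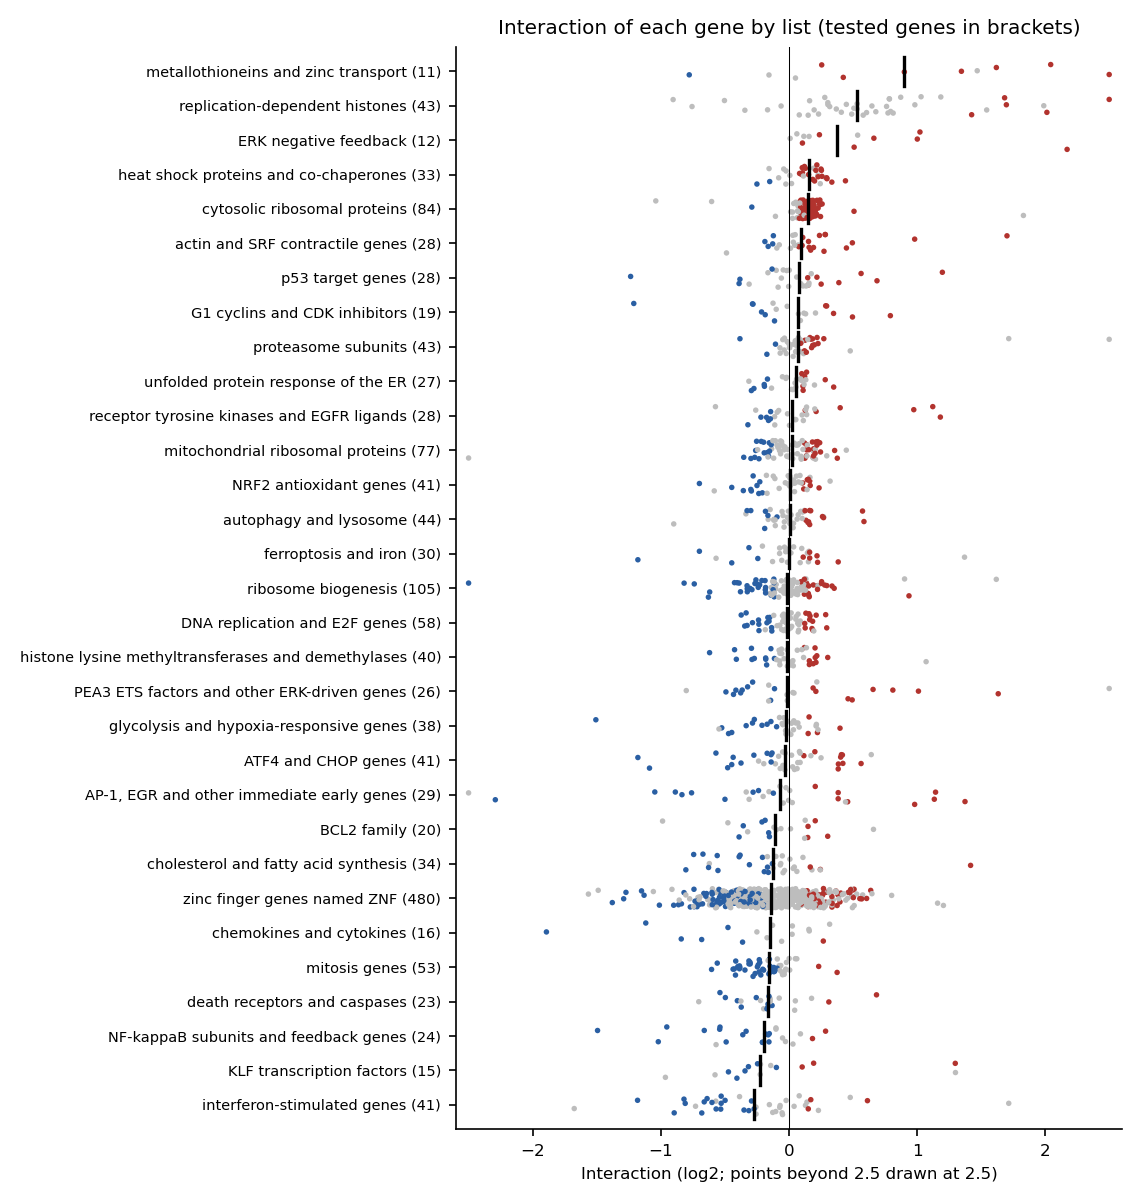
Interaction (log2, horizontal axis) of every tested gene in 31 lists, with red points for genes called above the sum, blue for genes called below and grey for the others, and a black bar at each list's median; points beyond the axis are drawn at its edge. Medians run from 0.90 for metallothioneins and zinc transport to -0.27 for interferon-stimulated genes.

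Of 38 tested glycolysis and hypoxia-responsive genes, 11 were below the sum and 4 above (28.9% and 10.5%, beside 15.9% and 14.4% of all genes), with a median of -0.02. BHLHE40, a circadian and hypoxia-induced repressor, on chromosome 3 from 4979412 to 4985180, was at 100.1, 103 and 99.6 CPM in control, 411, 396 and 388 CPM with EC359, 103, 104 and 100.4 CPM with trametinib and 142, 141 and 144 CPM with the combination. The EC359 libraries were far above all others, trametinib overlapped control, and the combination was only slightly raised, so that the effect of EC359 was 1.98 without trametinib and 0.47 with it. The interaction was -1.51 (standard error 0.04, edgeR adjusted p = 2.64e-36). DDIT4, an inhibitor of mTORC1, was at 8.73 ± 0.55 CPM in control, 52.9 ± 0.851 CPM with EC359, 9.6 ± 0.31 CPM with trametinib and 27.3 ± 1.79 CPM with the combination, an interaction of -1.09 (standard error 0.09, edgeR adjusted p = 2.13e-14). CITED2 and RRAD belong to no list. CITED2, a coactivator that competes with hypoxia-inducible factors, was raised by each agent alone, by 1.57 and 0.76, and by 1.16 with both, an interaction of -1.18 (standard error 0.04, edgeR adjusted p = 3.27e-29). RRAD, a small GTPase, was also raised by each agent, at 18.5 ± 0.563 CPM in control, 98.7 ± 2.41 CPM with EC359, 36.1 ± 1.2 CPM with trametinib and 73 ± 0.744 CPM with the combination and with an interaction of -1.4 (standard error 0.06, edgeR adjusted p = 1.59e-26).

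ATF4 is the transcription factor of the integrated stress response. The list of genes of ATF4 and CHOP, both factors included, had 9 above the sum and 12 below of 41 (22% and 29.3%, beside 14.4% and 15.9% of all genes), with a median of -0.03. CHAC1, which degrades glutathione, was at 3.64, 5.07 and 5.0 CPM in control, 11.5, 8.86 and 10.2 CPM with EC359, 5.74, 5.05 and 6.52 CPM with trametinib and 6.11, 5.22 and 5.64 CPM with the combination. Only EC359 alone stood apart, and in the presence of trametinib its effect was -0.03 (edgeR adjusted p = 0.827), an interaction of -1.18 (standard error 0.18, edgeR adjusted p = 4.29e-07). CEBPB, an inflammatory transcription factor, also fell short (-0.57), while SESN2, a leucine sensor that restrains mTORC1, exceeded the sum, at 24.6 ± 0.513 CPM in control, 90.0 ± 1.87 CPM with EC359, 25.3 ± 0.032 CPM with trametinib and 136 ± 2.09 CPM with the combination and with an interaction of 0.56 (edgeR adjusted p = 7.53e-12). The unfolded protein response list had 7 genes above and 5 below of 27 (25.9% and 18.5%), which became 4 and 7 with total counts only.

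Among NRF2 targets, 7 of 41 were above and 10 below (17.1% and 24.4%, beside 14.4% and 15.9% of all genes), with a median of 0.01. HMOX1, the heme oxygenase, was at 19.6 ± 0.523 CPM in control, 892 ± 26.5 CPM with EC359, 29.9 ± 1.08 CPM with trametinib and 836 ± 22.4 CPM with the combination. EC359 raised it by 5.5 without trametinib and by 4.81 with it, an interaction of -0.70 (edgeR adjusted p = 3.76e-17). SLC7A11, the cystine transporter that guards against ferroptosis, fell short on the log2 scale (-0.45) and exceeded the sum on the linear scale (19.5 CPM), while its partner SLC3A2 exceeded it on both (0.38). Of 30 genes of ferroptosis and iron, 6 were above and 5 below (20% and 16.7%), which became 5 and 6 with total counts only. Heat shock proteins and co-chaperones exceeded the sum by little but often, in 19 of 33 genes against 2 below (57.6% and 6.06%), with a median of 0.15. DNAJA4, FKBP4, DNAJA1 and BAG3, which fold proteins together with HSP70 or HSP90, had interactions of 0.44, 0.34, 0.30 and 0.30. Proteasome subunits had 13 above and 3 below of 43 (30.2% and 6.98%), with a median of 0.07. The median over the proteasome list of the highest group mean was 167 CPM, and of all genes over 64 CPM 27.9% were above and 22.2% below. Autophagy and lysosome genes had 11 above and 6 below of 44 (25% and 13.6%).

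Mitosis genes fell below the sum more often than any other list. Of 53 tested, 35 were below and 2 above (66% and 3.77%, beside 15.9% and 14.4% of all genes), with a median interaction of -0.16 and a median effect of -0.15 for EC359, 0.07 for trametinib and -0.26 for the combination. CKAP2, which stabilizes the spindle, was at 371 ± 3.41 CPM in control, 288 ± 4.99 CPM with EC359, 414 ± 4.03 CPM with trametinib and 218 ± 1.58 CPM with the combination, an interaction of -0.56 (standard error 0.03, edgeR adjusted p = 4.33e-20). CCNA2, which encodes cyclin A2, was at 240.0 ± 0.834 CPM in control, 173 ± 7.9 CPM with EC359, 245 ± 3.71 CPM with trametinib and 130.1 ± 2.83 CPM with the combination, an interaction of -0.44 (edgeR adjusted p = 3.08e-13). CDC25C, the phosphatase that starts mitosis, and NCAPD2, a condensin subunit, had interactions of -0.60 and -0.43. Genes of DNA replication had 12 above and 14 below of 58 (20.7% and 24.1%), with a median of -0.01. The median over this list of the highest group mean was 102 CPM, and of all genes over 64 CPM 27.9% were above and 22.2% below. ORC3 and MCM10, which act at replication origins, had interactions of -0.37 and -0.33. Of 19 G1 cyclins and CDK inhibitors, 5 were above and 6 below (26.3% and 31.6%). RB1, the retinoblastoma protein that holds cells in G1, was at 6.71 ± 0.145 CPM in control, 15.2 ± 0.178 CPM with EC359, 6.63 ± 0.665 CPM with trametinib and 26 ± 0.796 CPM with the combination, an interaction of 0.79 (edgeR adjusted p = 9.78e-08).

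Replication-dependent histone mRNAs are not polyadenylated in normal S phase, and most were weakly covered here. Of 43 tested, 5 were above the sum (11.6%, beside 14.4% of all genes) and none below, with a median of 0.53, and the median over the list of the highest group mean was 0.944 CPM. Of all genes under 1 CPM, 3.35% were above the sum and 1.62% below. HIST1H4C, on chromosome 6 from 26103948 to 26104337, was at 2.68, 5.1 and 1.68 CPM in control, 1.27, 1.81 and 4.26 CPM with EC359, 1.34, 1.14 and 1.3 CPM with trametinib and 12.8, 15.4 and 12.5 CPM with the combination. Control and EC359 libraries scattered and overlapped, and the combination libraries were all above 12 CPM, an interaction of 3.79 (standard error 0.70, edgeR adjusted p = 0.00363). HIST1H4E followed at a lower level, with 2.07 ± 0.42 CPM against 0.848 ± 0.227 CPM in control and an interaction of 1.7 (edgeR adjusted p = 5.00e-04).

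Cytosolic ribosomal protein genes exceeded the sum more often than any other list. Of 84 tested, 65 were above and 1 below (77.4% and 1.19%, beside 14.4% and 15.9% of all genes), but the departures were small, with a median of 0.15, and 55 of the 84 intervals lay within 1.2-fold. With total counts only, 56 were above and 1 below. RPS21 rose to 476 ± 19.8 CPM with the combination from 368 ± 10.8 CPM in control, an interaction of 0.26 (edgeR adjusted p = 6.31e-04), and its value was not whole in all 12 libraries. The paralog RPL22L1 departed most among those named, by 0.51, and RPL7L1 was the member below the sum (-0.29). Mitochondrial ribosomal proteins had 18 above and 14 below of 77 (23.4% and 18.2%), with a median of 0.02, a split that became 11 and 18 with total counts only. MRPL32 and MRPL53 were above (0.38 and 0.36), and MRPS18C and MRPL46 below (-0.35 and -0.30).

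Ribosome biogenesis genes had 20 above and 30 below of 105 (19% and 28.6%, beside 14.4% and 15.9% of all genes), with a median of -0.01. TAF1D, a subunit of the RNA polymerase I selectivity factor, was at 57.5, 56.6 and 58 CPM in control, 103, 109 and 107 CPM with EC359, 57.1, 52.7 and 50.9 CPM with trametinib and 187, 200.3 and 184 CPM with the combination. Trametinib overlapped control, EC359 alone was higher and the combination higher still, an interaction of 0.94 (standard error 0.05, edgeR adjusted p = 8.70e-20). WDR3 and RRS1, which build the small and large ribosomal subunits, were reduced by each agent and by more than the sum with both. WDR3 was at 111 ± 2.59 CPM in control, 67.3 ± 1.75 CPM with EC359, 88.4 ± 2.63 CPM with trametinib and 30.5 ± 0.714 CPM with the combination, an interaction of -0.82 (standard error 0.05, edgeR adjusted p = 1.28e-18), and that of RRS1 was -0.74 (edgeR adjusted p = 2.87e-15). RRN3, a polymerase I initiation factor with near-identical copies, was at 1.08 ± 0.163 CPM in control, 4.05 ± 1.61 CPM with EC359, 4.13 ± 0.736 CPM with trametinib and 1.32 ± 0.36 CPM with the combination with an interaction of -3.54 (edgeR adjusted p = 3.61e-07), but the annotation places it at no single position and its values were not whole in 9 of 12 libraries.

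Death receptors pass signals of tumour necrosis factor and its relatives to caspases. Of 23 death receptors, adaptors and caspases, 10 were below and 2 above (43.5% and 8.7%, beside 15.9% and 14.4% of all genes), with a median of -0.16. TNFRSF1A, the main receptor of tumour necrosis factor, was at 203 ± 4.95 CPM in control, 194 ± 4.05 CPM with EC359, 150.4 ± 2.56 CPM with trametinib and 99 ± 3.32 CPM with the combination, an interaction of -0.54 (standard error 0.04, edgeR adjusted p = 5.71e-16). Its adaptors FADD and RIPK1 had interactions of -0.50 and -0.40, with combination means of 20.4 ± 1.24 and 43.5 ± 0.555 CPM against 53.4 ± 2.06 and 55.4 ± 1.74 CPM in control. TNFRSF10D, a decoy receptor of TRAIL, was above the sum, at 89.4 ± 0.418 CPM with the combination against 83.7 ± 2.06 CPM with EC359 alone and an interaction of 0.68 (edgeR adjusted p = 7.26e-13).

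The BCL2 family had 4 above and 6 below of 20 (20% and 30%, beside 14.4% and 15.9% of all genes), with a median of -0.11. PMAIP1, the BH3-only protein NOXA, and MCL1, the survival protein it binds, departed alike and by little, by 0.30 and 0.21 on the log2 scale and by -19.1 and -44.9 CPM on the linear scale. Among 28 p53 targets, 8 were above and 4 below (28.6% and 14.3%), with a median of 0.08. PLK3, a kinase of the stress response, was at 10.8, 10.2 and 11.1 CPM in control, 38.8, 38.5 and 37.8 CPM with EC359, 0.936, 0.646 and 1.36 CPM with trametinib and 7.98, 8.31 and 8.38 CPM with the combination. Trametinib lowered it (log2 change -3.42) and EC359 raised it (1.84), and the combination lay just below control, an interaction of 1.2 (edgeR adjusted p = 1.62e-08) on the log2 scale and of -20.4 CPM on the linear scale. PPM1D, the phosphatase that ends p53 signaling, was at 24.6 ± 1.6 CPM in control, 46.3 ± 2.22 CPM with EC359, 28.7 ± 0.65 CPM with trametinib and 87.1 ± 0.811 CPM with the combination, an interaction of 0.69 (standard error 0.07, edgeR adjusted p = 1.69e-12) with the same sign on both scales.

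In metabolism, CPT2, which completes the carnitine shuttle of fatty acids into mitochondria, on chromosome 1 from 53196429 to 53214197, was at 13.9, 13.7 and 13.6 CPM in control, 4.77, 5.04 and 4.65 CPM with EC359, 15.6, 16.1 and 15 CPM with trametinib and 2.67, 2.2 and 2.4 CPM with the combination. Trametinib alone was slightly above control without passing the test (edgeR adjusted p = 0.0957), EC359 lowered CPT2 alone (log2 change -1.51) and in the presence of trametinib (-2.68), and the interaction was -1.18 (standard error 0.14, edgeR adjusted p = 1.37e-09). Cholesterol and fatty acid genes were below the sum more often than above it, 14 against 3 of 34 (41.2% and 8.82%, beside 15.9% and 14.4% of all genes), with a median of -0.13. INSIG1, which retains the sterol sensor in the endoplasmic reticulum, was at 7.14 ± 0.297 CPM in control, 83.5 ± 1.62 CPM with EC359, 9.61 ± 0.538 CPM with trametinib and 64.5 ± 1.62 CPM with the combination, an interaction of -0.80 (standard error 0.08, edgeR adjusted p = 1.82e-11). SQLE, squalene epoxidase, was raised by EC359 by 0.86 alone and by 0.19 with trametinib present, an interaction of -0.67 (edgeR adjusted p = 9.02e-17). ABCA1, the cholesterol exporter, had an interaction of -0.74. MYLIP, the ubiquitin ligase that degrades the LDL receptor, went against the list, at 8.93, 6.94 and 8.27 CPM in control, 9.93, 8.56 and 9.02 CPM with EC359, 7.93, 7.03 and 7.14 CPM with trametinib and 21.5, 22.4 and 23.5 CPM with the combination. Neither agent alone passed the test, and only the combination libraries stood apart, an interaction of 1.42 (standard error 0.12, edgeR adjusted p = 9.40e-14).

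Zinc finger genes named ZNF, most of them repressors, were below the sum in 85 and above in 39 of 480 (17.7% and 8.12%, beside 15.9% and 14.4% of all genes), with a median of -0.14. Many were weakly expressed, with a median of 8.43 CPM in the highest group. Of all genes with a mean of 4 to 16 CPM over the 12 libraries, 14.6% were below the sum and 8.67% above, near the shares of this list. ZNF41 was at 8.21, 9.1 and 9.51 CPM in control, 9.55, 8.69 and 8.55 CPM with EC359, 9.61, 8.39 and 8.66 CPM with trametinib and 4.03, 4.88 and 5.34 CPM with the combination. Neither EC359 nor trametinib alone changed it detectably, and every combination library lay below all others, an interaction of -0.90 (standard error 0.15, edgeR adjusted p = 3.08e-06). ZNF792 and ZNF554 had interactions of -1.38 and -1.01 at no more than 3.47 CPM in any library, and that of ZNF30, -1.29, turned to 0.273 CPM on the linear scale. ZSCAN32, a related SCAN domain factor, was at 19.6 ± 1.06 CPM in control, 8.65 ± 1.0 CPM with EC359, 20.8 ± 1.09 CPM with trametinib and 4.33 ± 0.731 CPM with the combination, an interaction of -1.08 (standard error 0.13, edgeR adjusted p = 1.78e-09). Histone lysine methyltransferases and demethylases had 9 above and 11 below of 40 (22.5% and 27.5%), with a median of -0.01. KDM6B and KDM7A, demethylases that were raised by EC359, lay below the sum, with interactions of -0.42 and -0.62, and SETD2, a methyltransferase of histone H3, lay above it, with one of 0.30.

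The remaining leading genes belonged to no list. KCNQ1OT1, a nuclear antisense RNA that silences an imprinted domain, on chromosome 11 from 2608328 to 2699998, was at 4.11, 5.99 and 5.18 CPM in control, 8.49, 8.19 and 8.31 CPM with EC359, 7.18, 7.63 and 7.56 CPM with trametinib and 34.8, 34.1 and 34.1 CPM with the combination. Each agent alone raised it, by 0.70 and 0.54, and the combination by 2.75, an interaction of 1.5 (standard error 0.12, edgeR adjusted p = 1.27e-14). FAM222A and CCDC150 were highest with the combination, at 11.4 ± 0.676 and 12.9 ± 0.316 CPM against 6.05 ± 0.308 and 4.45 ± 0.132 CPM in control, with interactions of 1.45 (edgeR adjusted p = 2.35e-10) and 1.39 (edgeR adjusted p = 1.13e-09). S1PR5, a receptor for sphingosine-1-phosphate, was at 14.9 ± 0.181 CPM in control, 6.86 ± 0.344 CPM with EC359, 13.7 ± 0.394 CPM with trametinib and 2.82 ± 0.459 CPM with the combination, an interaction of -1.15 (standard error 0.14, edgeR adjusted p = 1.39e-09). Among the leading genes the interaction with the largest estimate, that of RGL2, rested on libraries that disagreed. RGL2, an exchange factor for RAL, was at 9.39, 9.67 and 24.1 CPM in control, 1.31, 10.5 and 0.788 CPM with EC359, 0.843, 1.52 and 1.07 CPM with trametinib and 2.08, 20.6 and 22.6 CPM with the combination. The libraries of control, EC359 and the combination each spread widely and overlapped, no single agent passed the test, the interval ran from 1.82 to 9.09, and the annotation gives it no single position. Its call was lost without control library 3, any EC359 library other than library 2, any trametinib library, or combination library 2 or 3 (interactions 4.86 to 5.69, edgeR adjusted p 0.0568 to 0.0773). RNA5-8S5, a ribosomal RNA gene, had an interaction of 1.39 (edgeR adjusted p = 0.0255), with no single position and values that were not whole in all 12 libraries. That call was lost without EC359 library 1 or 2, or trametinib library 1 or 3 (edgeR adjusted p 0.054 to 0.0623).

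**Figure D5:**
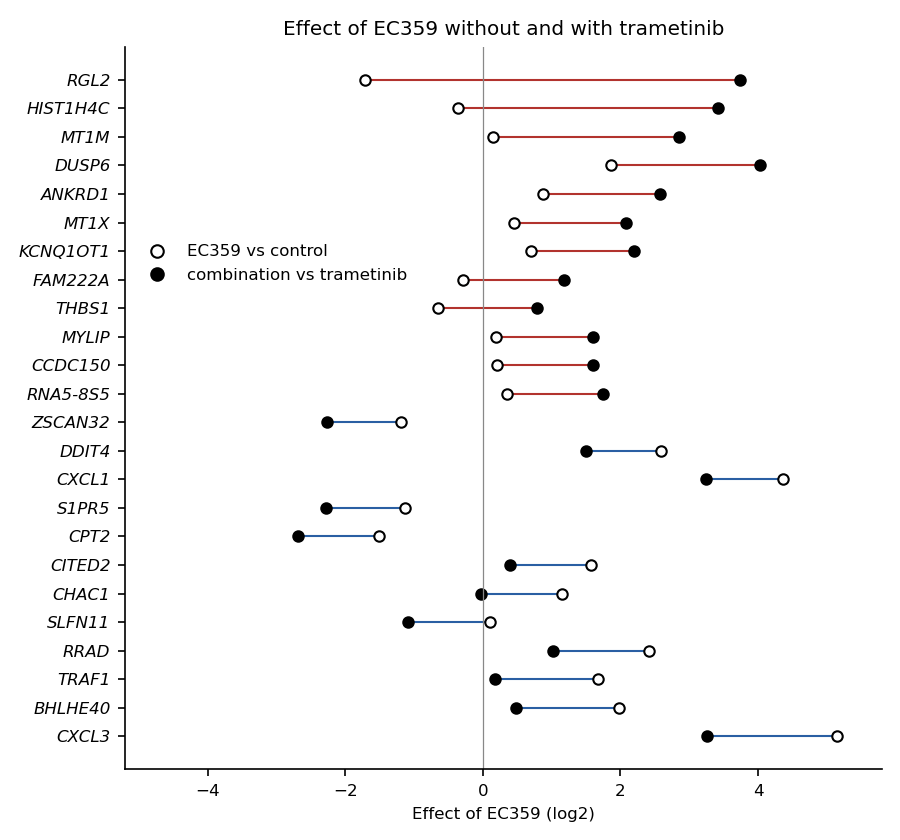
Effect of EC359 (log2, horizontal axis) without trametinib (open circles, EC359 against control) and with it (filled circles, combination against trametinib) for the 12 leading genes above the sum (red lines) and the 12 below it (blue lines). The signed length of each line is the interaction, from 5.46 in RGL2 and 2.71 in MT1M to -1.89 in CXCL3.

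LAMB3, a laminin chain of the basement membrane, was the 1 gene changed at least 2-fold by both agents whose interval stayed within 1.2-fold. It was at 90.0, 93.4 and 95.1 CPM in control, 288, 276 and 278 CPM with EC359, 30.3, 33.8 and 32.4 CPM with trametinib and 88.3, 87.9 and 87.6 CPM with the combination. EC359 raised it by 1.59, trametinib changed it by -1.53, and the combination lay just under control, with an interaction of -0.14 (edgeR adjusted p = 0.0226) and an interval of -0.24 to -0.04. The call was lost without control library 1, EC359 library 1, or trametinib library 2 or 3 (edgeR adjusted p 0.0548 to 0.127). On the linear scale LAMB3 departed by -132 CPM. In 14 genes both single agents moved expression one way and the combination moved it the other way, each passing the test. In 11 of them both agents lowered the gene and the combination raised it, and in 3 the reverse held.

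CRY1, a repressor of the circadian clock, was 1 of these, at 110.0, 105 and 109 CPM in control, 84.2, 84 and 84.8 CPM with EC359, 90.3, 85.7 and 88.9 CPM with trametinib and 127, 125 and 126 CPM with the combination. Both single agents were below all controls and the combination above them, an interaction of 0.87 (standard error 0.04, edgeR adjusted p = 4.56e-23). CSRP1, a LIM protein of smooth muscle, was at 231 ± 4.83 CPM in control, 217 ± 4.51 CPM with EC359, 179 ± 5.65 CPM with trametinib and 255 ± 2.21 CPM with the combination, and IFRD1, a transcriptional coregulator, at 46.2 ± 1.77 CPM in control, 40.4 ± 2.1 CPM with EC359, 40.9 ± 0.639 CPM with trametinib and 54.8 ± 0.755 CPM with the combination, with interactions of 0.60 and 0.61. LINC00472, a long noncoding RNA, and KRT10, a keratin, turned in the same direction (1.31 and 0.62). CBX7, a Polycomb subunit that binds methylated histone H3, went the other way, at 11.8 ± 0.702 and 12.2 ± 0.335 CPM with the single agents, 9.62 ± 0.864 CPM in control and 8.16 ± 0.958 CPM with the combination, an interaction of -0.87 (edgeR adjusted p = 1.92e-07).

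On the linear scale most calls kept their sign. Of the 2145 genes above the sum, 2113 had a linear interaction above 0 and 32 below it, 24 of the 32 by more than 2 standard errors. Of the 2361 below the sum, 2329 were below 0 on the linear scale and 32 above, 15 of the 32 by more than 2 standard errors. The summed level of 12 markers of immune cells, endothelium and fibroblasts, in CPM without TMM scaling, was 488 to 512 in control, 265 to 279 with EC359, 599 to 614 with trametinib and 346 to 369 with the combination. COL1A1 made up most of it and had an interaction of 0.24 (edgeR adjusted p = 4.06e-07), and CD68 was at 48.1 to 55.4 CPM in the 4 group means. The part of these markers in the results was not tested.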

How the data were processed

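Stranded libraries of polyadenylated RNA from OVCAR8 cells were sequenced by the authors as 100 bp paired-end reads. Per the file headers, the deposited counts were made with featureCounts 1.5.0-p1 on hg38 genes, with reads that had several placements or genes split as fractions. The deposited estimated counts were therefore rounded to whole numbers. The submitters' processing notes name HISAT2, whose version was not given in the sources used here. Genes with at least 10 counts in enough libraries (filterByExpr) were tested with edgeR 4.0.16 in R 4.3.3, using TMM scaling, robust quasi-likelihood fits of all 12 libraries and Benjamini-Hochberg adjustment at 0.05. The contrast was combination minus EC359 minus trametinib plus control. Library depth was 24790392 to 32467283 reads and the biological coefficient of variation 3.95%.

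The members and lists were chosen with earlier results of these data known. Genes named by rule were the 12 largest called interactions in each direction (at least 10 CPM, same sign in all 81 choices of libraries), up to 4 per list (at least 2 CPM), and up to 6 each of additive and turned-over genes. The scripts were tested on simulated data. Alternatives covered DESeq2 1.42.0, scaling, filters, a replicate block, left-out libraries and the linear scale.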

Additional observations from a re-analysis of the deposited data

Results flagged for a closer look

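The effect of EC359 in the presence of trametinib differed from its effect in the absence of trametinib, by edgeR's test of the difference itself, in 2145 genes in the upward direction and in 2361 in the downward direction. Among the genes named by rule, the difference was at least 2-fold upward, with its log2 size in brackets, in RGL2 (5.46), HIST1H4C (3.79), MT1M (2.71), DUSP6 (2.17), MT1F (2.04), ANKRD1 (1.70), HIST1H4E (1.70), EPHA4 (1.63), MT1X (1.62), KCNQ1OT1 (1.5), FAM222A (1.46), THBS1 (1.44), MYLIP (1.42), CCDC150 (1.39), RNA5-8S5 (1.39), MAFF (1.38), MT1E (1.35), LINC00472 (1.31), KLF4 (1.30), PLK3 (1.2), FOS (1.15), NR4A3 (1.14), HBEGF (1.12), SPRED3 (1.02) and ETV1 (1.01). It was at least 2-fold downward in RRN3 (-3.54), CXCL3 (-1.89), BHLHE40 (-1.51), TRAF1 (-1.49), RRAD (-1.40), ZNF792 (-1.38), ZNF30 (-1.29), SLFN11 (-1.18), TRIM21 (-1.18), CHAC1 (-1.18), CITED2 (-1.18), CPT2 (-1.18), S1PR5 (-1.15), CXCL1 (-1.12), DDIT4 (-1.09), ZSCAN32 (-1.08), EGR2 (-1.05), BCL3 (-1.02) and ZNF554 (-1.01). Of these, RGL2, RNA5-8S5 and RRN3 had no single position in the annotation, and their values were not whole in 9, 12 and 9 of the 12 libraries. With 3 libraries per group, no test for a single outlying library was made.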

How the results depend on the processing

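Of the 4506 interactions called, 3841 were also called among 3885 with DESeq2, 4391 among 4512 with DESeq2's size factors, 4306 among 4512 without a filter and 4191 among 4285 without robust estimation, with 0 in the opposite direction. With total counts only, 4577 were called, 1735 above the sum and 2842 below, against 2145 and 2361, and the median of all genes was -0.04. The number of genes with the combination highest was then 858, with EC359 lowest 548, with trametinib lowest 228 and with trametinib highest 645. With at least 10 counts in every library, 142 interactions reached 2-fold. Against a 1.5-fold threshold (glmTreat), 99 were called. Among the 4746 genes whose values were whole in all libraries, an alternative chosen after seeing the data, 641 were called (315 above and 326 below), 124 of at least 2-fold, with fewer genes tested. Of the 750 main calls testable there, 604 were called.

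The labels do not say whether libraries of the same replicate number belong together. Over 18 same-numbered pairs the correlation of deviations from the group mean ran from -0.162 to 0.131, with 2 over 0.1. The median was -0.0445, against 0.0194 for pairs of other numbers. With 3 libraries per group these values cannot show whether the libraries were paired. With a replicate block, 4431 interactions were called, 4393 of them shared with the fit without it.

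Leaving out each library in turn gave 3969 to 4432 called interactions, 1898 to 2065 above and 2064 to 2367 below the sum, and 203 to 235 of at least 2-fold. Pairwise calls ran from 8497 to 9127 for EC359, 3476 to 4290 for trametinib and 9924 to 10418 for the combination against control, from 6658 to 7307 for the combination against EC359 and from 9644 to 10222 against trametinib. Among 139 named genes, the call was lost without some library in RGL2, DDR2, LAMB3, RNA5-8S5 and CCL20, and without any of 3 libraries each in ANKRD37 and FBXW7. DDR2 also lost it in DESeq2 and CCL20 among genes with whole values (adjusted p of 0.0679 in each).

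On the linear scale the sign turned in 14 named genes, with interactions in CPM of 0.814 for ANKRD37, -54.1 for CTGF, -84.3 for DUSP5, -9.35 for DUSP6, -37 for FOS, -4.57 for GPR3, -102 for MAFF, -44.9 for MCL1, -20.4 for PLK3, -19.1 for PMAIP1, 19.5 for SLC7A11, -3.1 for SPRED3, -18.7 for SPRY2 and 0.273 for ZNF30. Low counts limit DUSP6 and FOS with trametinib, and most histone genes. The zinc finger genes had a median of 8.43 CPM in the highest group.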

Other observations

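Small nucleolar RNAs guide the modification of ribosomal RNA and are mostly processed from the introns of host genes. They were singled out after their values were seen. Of 158 tested, 37 were above the sum (23.4%, beside 14.4% of all genes) and 0 below (beside 15.9%; edgeR, adjusted over all genes), with a median interaction of 0.55 and median effects of 0.37 for EC359, -0.04 for trametinib and 0.75 for the combination. Their summed level was 230.3 ± 3.28 CPM in control, 286 ± 4.18 CPM with EC359, 219 ± 4.03 CPM with trametinib and 386 ± 5.0 CPM with the combination (SD, n = 3), and all combination libraries lay above the other 9. Of 167 tested microRNA genes, 22 were above the sum and 3 below (13.2% and 1.8%), with a median interaction of 0.21. The 22 are not separate results, since MIR6859-1 to MIR6859-4 among them had identical values. Of the 22, 15 lay inside 15 host genes, and 13 of these hosts were called above the sum and 0 below. Whether the reads of these microRNA genes came from their hosts was not tested. The summed level of the microRNA genes was also higher in all combination libraries than in the other 9. A few entries weigh heavily in that sum, and entries with identical values were each counted. MIR3654 was at 360 CPM in control and 404 CPM with the combination, with an interaction of 0.003. MIR1244-1 to MIR1244-4, identical in value, were each at 123 CPM in control and 110 CPM with the combination. Most small nucleolar RNAs were weakly covered, with a median of 0.896 CPM, and the libraries were made from polyadenylated RNA. Of all genes under 1 CPM, 3.35% were above the sum and 1.62% below.

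Of the 37, 33 lay inside 20 host genes, and 16 of these hosts were called above the sum and 0 below, with a median host interaction of 0.15. Over all 65 host genes of the 158, 46 were called above and 3 below, with a median of 0.14, where 14.4% and 15.9% of all genes were called. SNHG1, a noncoding host of several C/D box members, was at 87.2 ± 3.42 CPM in control, 91.9 ± 2.5 CPM with EC359, 79.8 ± 2.24 CPM with trametinib and 138 ± 2.46 CPM with the combination, an interaction of 0.71 (edgeR adjusted p = 1.79e-18). The hosts SNHG12, EIF4A2 and NOP56 had interactions of 0.60, 0.55 and 0.34. In the hosts ZFAS1 and GAS5, with interactions of 0.40 and 0.27, no small nucleolar RNA was called. These hosts were picked after their values were seen.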
